A study of Mus musculus with 3 samples.

Results

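Transcripts of 9 complement genes were followed in 3 libraries of mouse vestibular cells that resembled black balls. The 9 genes were the C1q chains C1qa, C1qb and C1qc, the later components C2, C3, C4b and Cfb, and the anaphylatoxin receptors C3ar1 and C5ar1. They were taken by gene symbol from a table of 57180 genes, and each symbol matched 1 row. The vestibule is the balance organ of the inner ear. Per the labels, the cells were wild-type (WT) macrophages, while the series title speaks of melanocytes, and 18 such cells from 9 mice (3 per group) were lysed and their polyadenylated RNA amplified with the SMART-Seq HT kit. The 3 libraries form 1 group without a control, and the sources used here give neither age nor strain nor the number of cells in each library. All comparisons are therefore between genes within the same libraries. The labels give 3 mice per group, which does not match 1 group of 9 mice, and they assign no mouse to a library. Whether the libraries came from separate animals is thus not stated. The p-values therefore reflect only the spread between these 3 libraries, pooled in part over genes, and some of it may be technical.

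Complement is a cascade of blood and tissue proteins that tags targets for uptake or lysis. C1q, built from the products of C1qa, C1qb and C1qc, binds immune complexes, dying cells and synapses, and its attached proteases C1r and C1s cut C4 and C2 to form the classical C3 convertase. The lectin and alternative routes reach C3 by other proteases, cleaved C3 and C5 release the anaphylatoxins C3a and C5a, and the terminal components form a pore. Tissue macrophages and microglia are known as the main source of C1q, while the liver secretes most of the circulating C3 and terminal components.

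The libraries held 18460546, 15086854 and 14095521 counts in replicates 1, 2 and 3. A floor of 3 counts equals 0.163, 0.199 and 0.213 CPM (counts scaled to the library total) in the same order, and covers counting error only, since PCR copies carried no molecular identifiers. Levels are given in TPM, which is the deposited FPKM brought to a common sum per library. Whether a gene exceeded 1 TPM was tested with limma on log2(TPM + 1), one-sided and Benjamini-Hochberg adjusted over 27265 genes with a count (called where adjusted p was under 0.05), and this called 37.6% of all genes tested and 50.5% of protein-coding ones. Of the 14 markers of macrophages, 12 were called, with summed levels of 8248, 5053 and 5282 TPM in replicates 1, 2 and 3. Of the 9 markers of melanocytes, 7 were called, with 564, 678 and 691 TPM. No member of either list was at 0 in any library. Among markers of other cells, 7 of 8 for fibroblasts, 4 of 4 for supporting epithelium and 2 of 5 for endothelium were called. So were 1 of 4 for B cells, with 3 tested, and 3 of 7 for neutrophils and monocytes. A gene whose mean exceeds 1 TPM can miss the call where its libraries differ widely. Each library is a sum over its cells, so fewer cells of a type and less RNA per cell cannot be told apart.

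The C1q chains stood far above the other 6 genes. C1qb, C1qa and C1qc averaged 563 ± 125, 229 ± 153 and 142 ± 46.0 TPM (SD, n = 3, as for all means below), and no other of the 9 genes exceeded 24.03 TPM in any library. The lowest chain was 10.9, 4.22 and 11.8 times the highest of the other 6 genes in replicates 1, 2 and 3. This fold depended on gene length: with coding transcript lengths it lay between 5.12 and 9.84 over the 3 libraries, and in CPM, which ignores length, it was 2.02, 1.69 and 4.48. The summed level of the chains was 761, 741 and 1301 TPM, against 25.9, 46.8 and 33.0 TPM for the other 6 genes together. Of all counts assigned to the 9 genes, the chains held 87.3%, 79.4% and 89.8%.

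**Figure D1:**
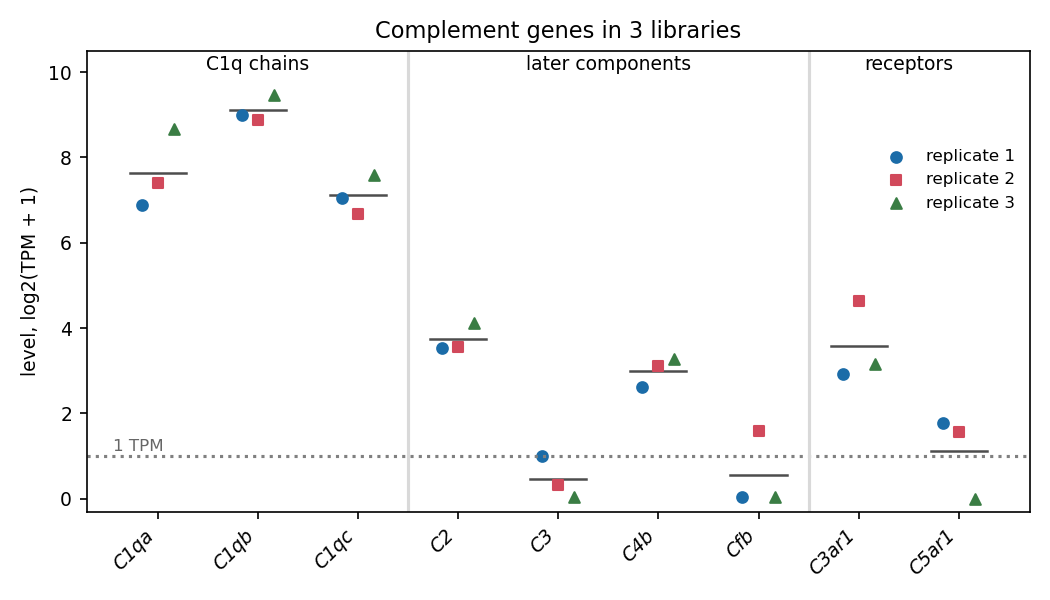
Level of each complement gene on the log2(TPM + 1) scale (vertical axis), with 1 symbol per library and a bar at the mean of the 3 libraries; the dotted line marks 1 TPM. The 3 C1q chains lie above every other gene in each library, and C3, Cfb and C5ar1 each have at least 1 library below the line.

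In limma's test against 1 TPM, 6 of 9 genes passed. All 9 had a count and were tested. Among all genes tested 37.6% passed, and among protein-coding genes, to which all 9 belong, 50.5% did. The 6 genes were the 3 chains, C2, C4b and C3ar1, and the same 6 had an unadjusted p under 0.05. The median over the 9 genes of the mean level was 12.6 TPM, beside 2.24 TPM over all genes tested, which include noncoding genes.

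The 3 C1q genes lie side by side on chromosome 4 (GRCm39, coordinates as deposited), within 18675 bp. C1qb spans 136607440 to 136613498, C1qc 136617115 to 136620376 and C1qa 136623228 to 136626114, with 3616 bp and 2851 bp between them. No other gene of the table overlapped any of the 3. C1qb, the B chain, had 513, 471 and 705 TPM in replicates 1, 2 and 3, from 4141, 3463 and 5079 counts. It ranked 155 among protein-coding genes by mean level (limma, adjusted p = 1.3e-05 against 1 TPM). Replicates 1 and 2 were close and replicate 3 was highest. C1qa, the A chain, had 116, 168 and 404 TPM from 899, 1182 and 2778 counts, and ranked 432 (limma, adjusted p = 5.06e-05). It was 3.47 times as high in replicate 3 as in replicate 1, the widest range of the chains, and without replicate 3 it averaged 142.3 TPM. C1qc, the C chain, had 132, 101 and 192 TPM from 2106, 1472 and 2729 counts, and ranked 687 (limma, adjusted p = 1.68e-05). All 3 chains were highest in replicate 3, the library with the fewest counts.

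Sequence before the transcription start was read for C1qb and C1qc, the only chains with a promoter available, and for C3. C1qa had none and could not be read. C3 was the lowest of the 9 genes by mean TPM, though its level and that of Cfb did not differ beyond the spread between libraries. RefSeq promoters (GRCm38.p6, a different build from that of the deposited coordinates) were found for 5 of the 9 genes: C1qb, C1qc, C3ar1, C5ar1 and C3. The 250 bases before the start are shown 5′ to 3′ on the strand of the gene, which is the minus strand for all 3, at chr4:136886201-136886450 for C1qb, chr4:136892915-136893164 for C1qc and chr17:57228137-57228386 for C3. Capitals mark AGGAAG, the core bound by PU.1 and other ETS factors of myeloid cells, and TCATGTG, the M-box bound by MITF and its relatives, or their reverse complements.
C1qb: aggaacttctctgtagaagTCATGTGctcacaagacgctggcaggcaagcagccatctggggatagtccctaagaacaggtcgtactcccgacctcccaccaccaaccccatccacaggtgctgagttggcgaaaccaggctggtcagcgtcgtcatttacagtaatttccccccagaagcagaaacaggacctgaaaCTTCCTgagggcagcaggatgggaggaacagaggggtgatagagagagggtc
C1qc: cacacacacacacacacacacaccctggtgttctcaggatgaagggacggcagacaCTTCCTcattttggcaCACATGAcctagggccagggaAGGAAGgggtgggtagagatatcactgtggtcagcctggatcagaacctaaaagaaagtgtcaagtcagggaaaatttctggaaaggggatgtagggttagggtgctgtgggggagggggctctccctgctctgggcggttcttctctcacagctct
C3: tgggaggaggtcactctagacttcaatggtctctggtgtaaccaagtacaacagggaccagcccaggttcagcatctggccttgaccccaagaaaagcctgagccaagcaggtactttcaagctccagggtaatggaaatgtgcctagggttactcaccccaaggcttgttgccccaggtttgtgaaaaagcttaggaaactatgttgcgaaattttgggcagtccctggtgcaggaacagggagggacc
Below, a motif name covers its reverse complement too, and positions give the first base of a match in the 5′ to 3′ sequence of the gene. AGGAAG began 52 bases before the start of C1qb (as CTTCCT), and 194 (as CTTCCT) and 157 bases before that of C1qc. It was also found before C5ar1, 189, 71 and 67 bases from the start, though C5ar1 did not pass the test against 1 TPM. It was found neither before C3ar1, which passed, nor before C3, and 29.5% of the 32851 promoters of the table hold it within the same window. TCATGTG began 231 bases before C1qb and 178 bases before C1qc (as CACATGA), was not found before C3, C3ar1 or C5ar1, and is held by 3.25% of promoters. The longer PU.1 form GAGGAAGT, held by 2.44%, overlapped the first AGGAAG of C1qc and was absent from the windows of the other 4 genes. A composite of ETS and IRF factors (GGAA, any 2 bases, GAAA; 2.30% of promoters) and an interferon response form (GAAA, any 2 bases, GAAA; 2.98%) were in none of the 5 windows. A loose NF-kappaB form (GGGA, any 4 bases, CC; 17.6%) had matches before C1qb, C1qc and C3. A loose C/EBP form (TTNNGNAA, 36.8%) matched before C3, C1qc and C5ar1. All 7 motifs were searched on both strands and chosen after expression values had been seen. A match describes letters only.

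Of the ratios between chains, C1qc over C1qb was the steadiest, at 0.257, 0.215 and 0.272 in TPM in replicates 1, 2 and 3. C1qa over C1qb was 0.227, 0.357 and 0.572 in the same libraries. The exact (Clopper-Pearson) 95% counting intervals of this ratio, 0.211 to 0.244, 0.334 to 0.382 and 0.546 to 0.599, did not overlap. These intervals cover the counting of reads, not the amplification of RNA from a few cells. C1qb exceeded C1qa in 3 of 3 libraries, by 1.47 ± 0.66 (SD of the differences within libraries) on the log2(TPM + 1) scale. With limma's standard errors of both genes combined as if the genes were independent, the adjusted p was 0.0204. That p ignores the pairing within libraries, so it does not test the spread of these differences. C1qb exceeded C1qc by 1.95, 2.21 and 1.87 in replicates 1, 2 and 3 (adjusted p = 0.00172 from limma's standard errors combined in the same way). C1qa minus C1qc was 0.54 ± 0.64 on that scale, within the spread between libraries, with C1qa higher in 2 of 3.

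**Figure D2:**
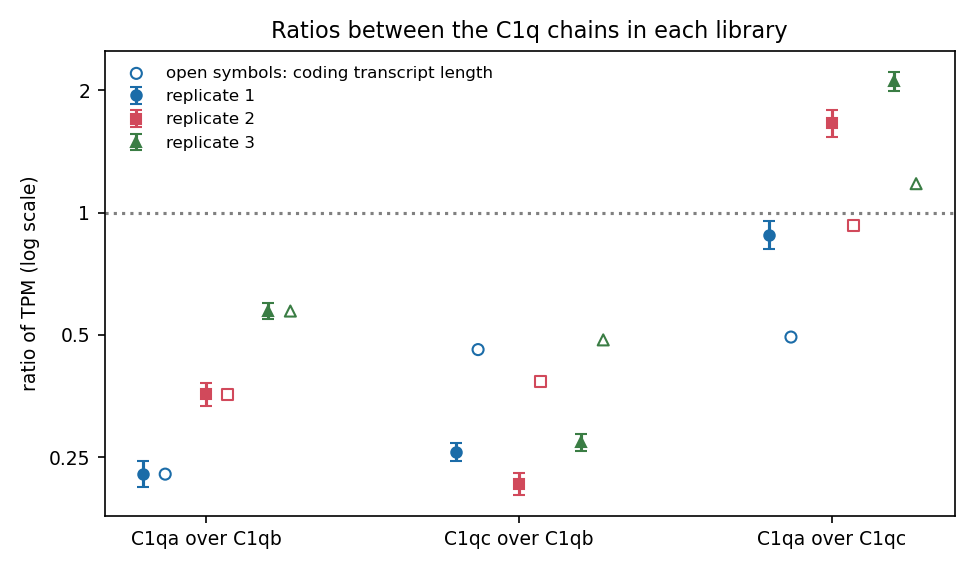
Ratios of TPM between pairs of C1q chains (log vertical axis) in each library; filled symbols with exact 95% counting intervals use the deposited gene length, open symbols the longest protein-coding GENCODE transcript. C1qc over C1qb stays between 0.215 and 0.272 with the deposited length, while C1qa over C1qb runs between 0.227 and 0.572.

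Gene length affects the order of C1qa and C1qc. The length implied by count and FPKM was 1040 bp for C1qa and 1088 bp for C1qb, each equal to its longest protein-coding transcript in GENCODE M21. For C1qc it was 2149 bp, against a transcript of 1203 bp, or 1.79 times as long. Over genes tested, the median of this ratio was 1.89, so C1qa and C1qb, at a ratio of 1.00, stood higher in TPM relative to other genes than they would with transcript lengths throughout. With the coding transcript lengths, an alternative chosen after the data were seen, C1qb averaged 344 ± 76.5 TPM, C1qa 141 ± 94.1 TPM and C1qc 155 ± 50.0 TPM. C1qa then exceeded C1qc in replicate 3 alone, with ratios of 0.494, 0.929 and 1.18 in replicates 1, 2 and 3. C2, C4b and C3ar1 averaged 16.5 ± 4.25, 5.15 ± 1.37 and 7.92 ± 6.13 TPM on this scale, below each chain in every library.

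**Figure D3:**
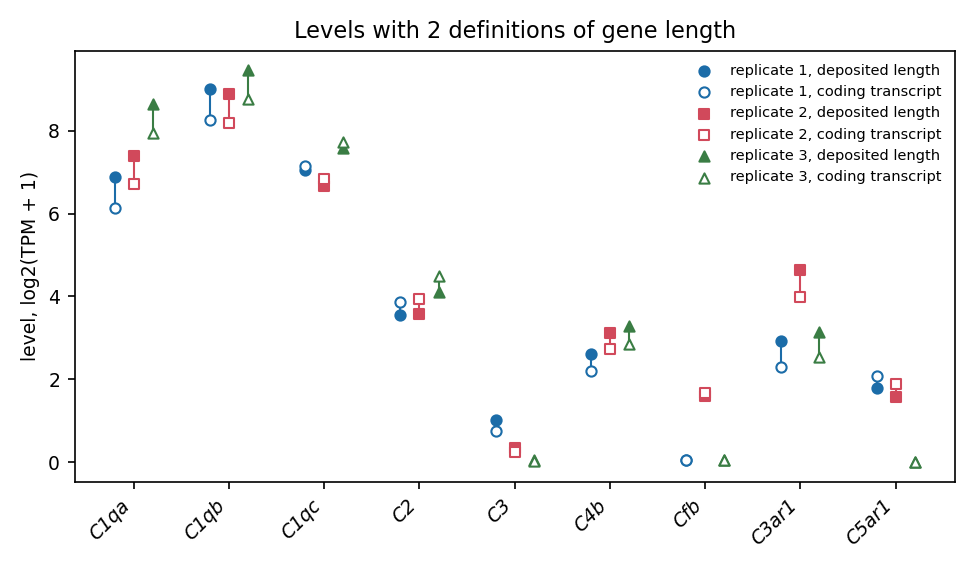
Level of each complement gene on the log2(TPM + 1) scale (vertical axis) in each library, with the length implied by the deposited values (filled) and with that of the longest protein-coding GENCODE transcript (open). C1qa, C1qb and C3ar1 move down, C1qc and C2 move up, and the chains stay above the other genes.

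C1q was set against the macrophage markers of the same libraries. The mean level of the chains was 7.65, 7.65 and 8.57 on the log2(TPM + 1) scale in replicates 1, 2 and 3, against 4.95, 5.14 and 5.24 for the 14 macrophage markers. The difference was 2.70, 2.51 and 3.34. Summed TPM gave another order, since the macrophage sum was highest in replicate 1, where Lyz2 (lysozyme) alone stood at 6490 TPM. Summed C1q was 0.0923, 0.147 and 0.246 of the summed macrophage markers. C1q took 0.0387%, 0.0405% and 0.0751% of all counts, with exact binomial 95% intervals of 0.0378% to 0.0396%, 0.0395% to 0.0416% and 0.0737% to 0.0765%.

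The genes nearest to a chain in level, by the largest absolute difference over the 3 libraries on the log2(TPM + 1) scale, differed in how close they came. For C1qb they were Laptm4a, H2bc4 and Uqcr10, within 0.10, 0.14 and 0.17. For C1qc they were Arl2, Calm3 and Rps16, within 0.09, 0.11 and 0.13. C1qa had no gene as close: Atp5me, Fkbp2 and Crabp2 came within 0.36, 0.42 and 0.43.

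Among the later components, C2 and C4b were present in each library, while C3 and Cfb each had a single count in at least 1 library. C2, the protease zymogen cut by C1s (chromosome 17, 35081580 to 35117241), had 10.6, 10.8 and 16.3 TPM in replicates 1, 2 and 3 (limma, adjusted p = 0.000377 against 1 TPM). It was highest in replicate 3, as the chains were. C4b, the component that binds covalently to targets (chromosome 17, 34947354 to 34962856), had 5.16, 7.66 and 8.71 TPM (limma, adjusted p = 0.00254). Its copy C4a, listed in the deposited table as a lncRNA, lies 65212 bp away and had 0.682, 0.403 and 0.431 TPM. The sources used here do not say how reads shared by the copies were assigned, so both levels are uncertain. C2 exceeded C4b in 3 of 3 libraries, by 0.73 ± 0.25 on the log2(TPM + 1) scale.

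C3, the component on which all routes meet (chromosome 17, 57510970 to 57535136), had 43, 10 and 1 counts, or 1.02, 0.261 and 0.0266 TPM. Its mean lay below 1 TPM and it did not pass the test. Cfb, the protease zymogen of the alternative route (chromosome 17, 35075350 to 35081494), had 1, 65 and 1 counts, or 0.0281, 2.00 and 0.0315 TPM, so nearly all of its counts came from replicate 2. Cfb lies 85 bp from C2, and Gm20547 (35075388 to 35101018) overlaps both, with 3.39, 2.30 and 0.782 TPM. Zbtb12 and Gm56901, which also lie within C2, had 9 counts or fewer in each library. Because the use of strand and the treatment of overlaps are not given, reads could have been split between Gm20547, C2 and Cfb.

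The receptors differed between libraries. C3ar1, the receptor of C3a (chromosome 6, 122824097 to 122833120), had 6.57, 24.03 and 7.90 TPM in replicates 1, 2 and 3, from 210, 699 and 225 counts. It passed limma's test (adjusted p = 0.00306), and was 3.66 and 3.04 times as high in replicate 2 as in replicates 1 and 3. The call ended without replicate 1 (adjusted p = 0.0552, mean 15.96 TPM), without replicate 3 (adjusted p = 0.0597, mean 15.3 TPM) and with no filter on low values (adjusted p = 0.103). Without replicate 2 the mean was 7.23 TPM, against 12.8 TPM with it. C5ar1, the receptor of C5a (chromosome 7, 15980668 to 15993465), had 101, 74 and 0 counts, or 2.45, 1.97 and 0 TPM, and did not pass (limma, adjusted p = 0.711). The count of 0 in replicate 3 allows up to 0.213 CPM, against 5.47 and 4.90 CPM in replicates 1 and 2.

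Markers of neutrophils and monocytes were also highest in replicate 2, as C3ar1 and Cfb were. Their 7 genes summed to 18.3, 566 and 145 TPM in replicates 1, 2 and 3, none was at 0 in any library, and S100a8, S100a9 and Ngp passed the test against 1 TPM. Replicate 2 was also highest for some markers of other cells. Tyr and Tyrp1 of melanocytes had 6.83, 32.0 and 13.1 TPM and 8.06, 21.2 and 5.93 TPM in replicates 1, 2 and 3. Lum of fibroblasts had 82.4, 184 and 57.3 TPM. Pmel and Slc45a2 of melanocytes and Dcn of fibroblasts were also highest in replicate 2. The remaining markers of both cell types, such as Dct and Coch, were highest in another replicate. The part of any of these cells in the levels of C3ar1 and Cfb was not tested. Among the 14 macrophage markers, only Mrc1 and Fcer1g were likewise highest in replicate 2, and both were lowest in replicate 1. They had 8.99, 13.1 and 10.8 TPM and 120.1, 204.0 and 197 TPM. All other macrophage markers were highest in replicate 1 or 3, among them Csf1r, the CSF1 receptor, with 5.32, 16.3 and 17.0 TPM.

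In the order of mean TPM, C1qb came first, then C1qa, C1qc, C3ar1, C2, C4b, C5ar1, Cfb and C3. Of the 8 neighbouring pairs, C1qa and C1qc, C3ar1 and C2, C5ar1 and Cfb, and Cfb and C3 did not differ beyond the spread between libraries. The other 4 pairs differed by more than 1 SD with the same sign in 3 of 3 libraries. C1qc, the lowest chain, exceeded C3ar1 by 4.13, 2.03 and 4.44 on the log2(TPM + 1) scale in replicates 1, 2 and 3. The step was smallest in replicate 2.

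Each chain was then compared with each of the other 6 genes by the difference within a library. In limma's two-sided test of chain minus gene, fitted over all genes for each chain in turn, the chain was higher in 18 of 18 pairs (adjusted p under 0.05) and in 3 of 3 libraries each. However, C1qa, C1qb and C1qc were called higher than 93.3%, 98.5% and 94.1% of all genes tested, so these counts are near the background. Among genes above 1 TPM the chains were called higher than 82.3%, 95.9% and 84.3%. All genes of a fit share the spread of 1 chain, so its p-values are too small. In an alternative chosen after the data were seen, limma's standard errors of chain and gene were combined instead, as if the genes were independent. The adjusted p from these limma standard errors lay between 4.72e-06 and 0.000932 for the 18 pairs. It ignores the pairing of chain and gene within libraries, so it does not test the spread of their differences.

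The differences were largest for C3 and Cfb and smallest for C2 and C3ar1. C1qb exceeded C3 by 8.66 ± 0.34 and Cfb by 8.56 ± 0.42 on the log2(TPM + 1) scale (SE from limma, n = 3), a scale that understates differences from genes near 0. The SE in this paragraph lean on the spread of all genes in a fit and are not the spread of the pair itself. C1qb exceeded C2 by 5.38 ± 0.35, with 5.46, 5.32 and 5.35 in replicates 1, 2 and 3. C1qc exceeded C2 by 3.37 ± 0.44, with 3.51, 3.11 and 3.48. Both ratios were thus nearly the same in all libraries, while C1qa minus C2 was 3.33, 3.84 and 4.55. C1qc minus C3ar1, at 3.54 ± 0.47, and C1qc minus C4b, at 4.10 ± 0.48, showed lower values in replicate 2 than in the other libraries. The SD of C1qc minus C3ar1 over the 3 libraries was 1.31. In CPM, which ignores gene length, 17 of 18 pairs kept their call, and C1qa minus C2 did not, at 1.54 on the log2(CPM + 1) scale (limma, adjusted p = 0.0683).

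Of 48 other complement genes, 34 had a count and were tested. Of these, 13 stood above 1 TPM in limma's test, a share near the 37.6% among all genes tested. It was below the 50.5% among protein-coding genes, to which all of the 34 but C4a belong. The median of the mean levels over these 34 was 3.44 TPM, beside 2.24 TPM over all genes tested, which include noncoding genes. Over all 48, of which 14 had no count, it was 0.629 TPM. With an unadjusted p under 0.05 there were 15. The counts by role below are given over whole lists, while the shares of 37.6% and 50.5% are over tested genes only.

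The C1 proteases, which act with C1q, did not pass. C1ra had 6.15, 0.496 and 4.26 TPM in replicates 1, 2 and 3 (limma, adjusted p = 0.188). C1s1 had 3.13, 5.59 and 1.80 TPM (adjusted p = 0.0721), and passed in CPM (adjusted p = 0.0127), with a pseudocount of 0.1 (0.0303), with the test kept to genes that had a count in every library (0.0266) and with limma's trend switched off (0.0343). C1ra was highest in replicate 1 and C1s1 in replicate 2. C1rb had 3, 0 and 3 counts and C1s2 none, so 3 of the 4 genes were tested. Limma called 0 of them, and 1 had an unadjusted p under 0.05. Of the 8 lectin pathway genes 4 had a count and were tested, limma called 0, and 0 had an unadjusted p under 0.05. Fcna, ficolin A, had 0, 0 and 123 counts, and Colec11, a collectin, had 69, 80 and 3. The lectin proteases Masp1 (0, 49 and 81 counts) and Masp2 (0, 0 and 1) stood near the floor in at least 1 library, and Mbl1, Mbl2, Fcnb and Colec10 had no count.

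In the alternative route, Cfp, which encodes properdin, a stabiliser of the C3 convertase, had 17.9, 7.41 and 2.08 TPM in replicates 1, 2 and 3. It passed limma's test (adjusted p = 0.0232), but not with a pseudocount of 5 (0.0555) or with no filter (0.261). Without replicate 1 (limma, adjusted p = 0.202, mean 4.74 TPM) or replicate 2 (0.199, mean 9.97 TPM) Cfp also missed the call. With all 3 libraries its mean was 9.11 TPM, and fits on 2 libraries have less power. Cfd, the protease adipsin, had 0, 28 and 0 counts, so 1 of the 3 genes of that list passed. Of the 7 terminal components 4 had a count and were tested, limma called 0, and 0 had an unadjusted p under 0.05. C8g had 124, 5 and 0 counts, and the gene of C5, Hc, had 0, 39 and 6. C9 had 6, 5 and 0 counts, C7 had 8, 0 and 0, and C6, C8a and C8b none. The hepatocyte markers Alb, Fgb, Serpina1a and Ahsg had no count in any library, and 0 of 5 hepatocyte markers passed, with summed levels of 2.82, 1.30 and 3.57 TPM.

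Among receptors of complement fragments, Itgax and Itgb2, the chains of complement receptor 4, passed (2 of 6, with 4 tested). Itgax had 3.91, 6.64 and 11.1 TPM in replicates 1, 2 and 3 (limma, adjusted p = 0.00591), with a mean of 7.22 TPM. It did not pass without replicate 2 (limma, adjusted p = 0.0851, mean 7.51 TPM), replicate 3 (0.0612, mean 5.27 TPM) or the filter (0.0904). Itgb2 had 4.42, 5.81 and 2.27 TPM (adjusted p = 0.0331), and its call ended without replicate 1 (0.186), without replicate 2 (0.208), with a pseudocount of 5 (0.0771) and with no filter (0.126). Itgam, the alpha chain of complement receptor 3, had 1.05, 0.164 and 0.671 TPM. Cr2, a receptor of B cells and follicular dendritic cells, had 10, 10 and 0 counts. Vsig4, a C3b receptor of resident macrophages, and C5ar2 had none. Of proteins reported to bind C1q, 3 of 4 passed: C1qbp at 74.5 ± 11.8 TPM, the chaperone calreticulin (Calr) at 60.7 ± 18.6 TPM and the endocytic receptor Lrp1 at 18.0 ± 7.37 TPM. Many cells express these 3. Cd93 had 0.968, 0.332 and 4.12 TPM and did not pass.

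**Figure D4:**
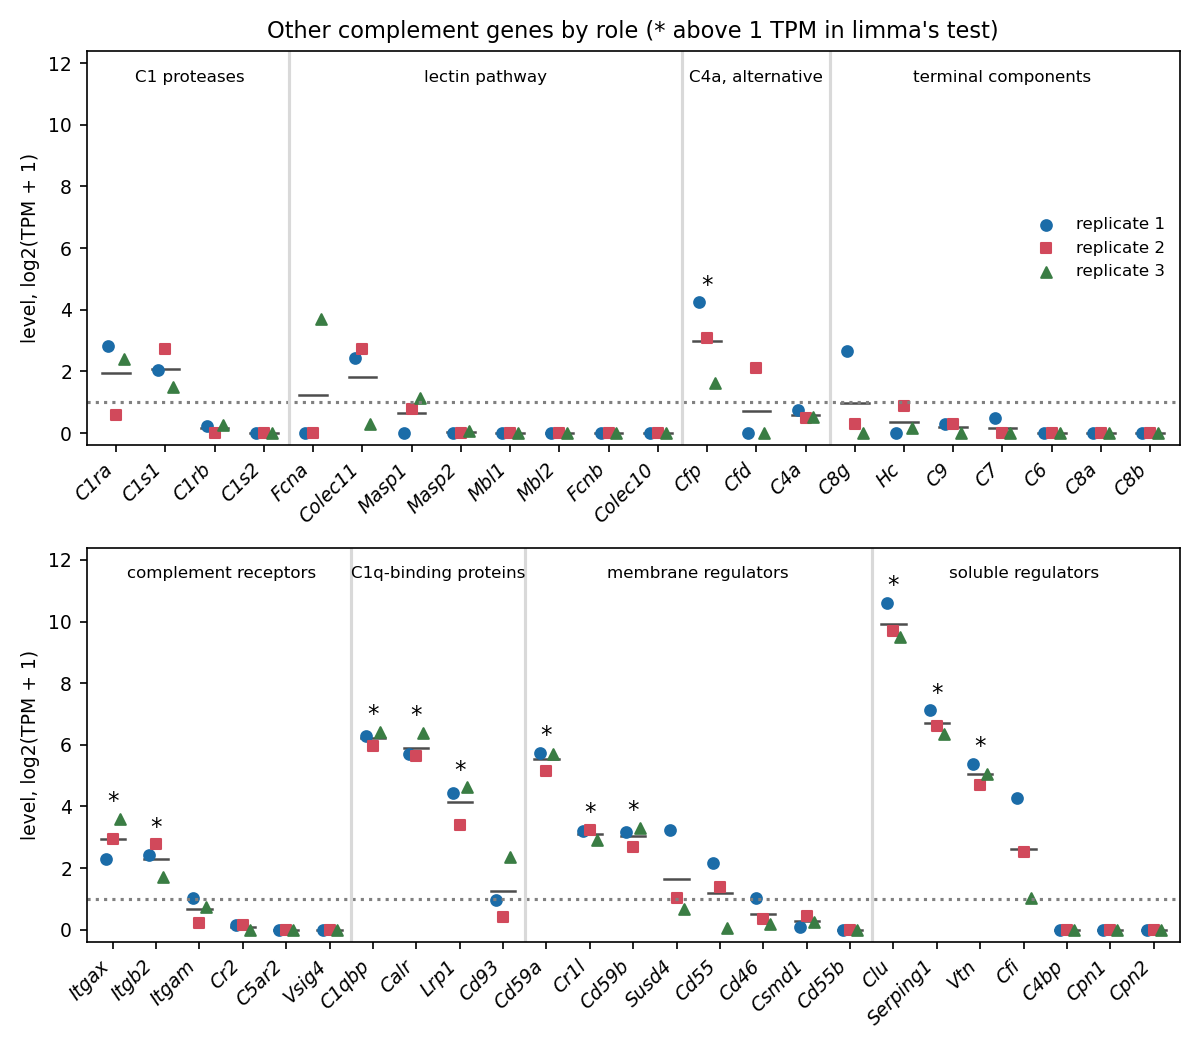
Level of 47 other complement genes by role on the log2(TPM + 1) scale (vertical axis), with 1 symbol per library, a bar at the mean and an asterisk where limma's test placed the gene above 1 TPM. Clu and Serping1 stand highest, followed by C1qbp, Calr and Cd59a, and no gene of the C1 protease, lectin or terminal lists carries an asterisk.

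The regulators were led by soluble proteins. Clu, which encodes clusterin, an inhibitor of the terminal complex and a chaperone, had 1554, 825 and 730 TPM in replicates 1, 2 and 3 (limma, adjusted p = 1.39e-05), above C1qb in each library. Serping1, the C1 inhibitor, had 138, 97.6 and 80.2 TPM (adjusted p = 1.67e-05). Vtn, vitronectin, averaged 32.5 ± 7.84 TPM. Cfi, the protease that inactivates C3b, had 18.2, 4.77 and 1.05 TPM and did not pass (adjusted p = 0.0767), though it did with a pseudocount of 0.1 (0.0446) and with the test kept to genes counted in every library (0.0372). C4bp, Cpn1 and Cpn2 had no count. The supporting epithelium markers summed to 2463, 1674 and 1741 TPM and those of fibroblasts to 13043, 13254 and 9474 TPM in the same libraries, with no marker at 0, and the part of these cells in the regulators was not tested.

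On membranes, Cd59a, which blocks the terminal pore, averaged 46.0 ± 10.0 TPM, and its copy Cd59b 7.42 ± 1.77 TPM. Cr1l (Crry), the rodent inhibitor of C3 convertases, averaged 7.74 ± 0.989 TPM. These 3 of 8 membrane regulators, of which 7 were tested, passed limma's test, with adjusted p between 2.86e-05 and 0.00216. Susd4 had 8.37, 1.05 and 0.582 TPM, and Cd55 (decay-accelerating factor) had 3.46, 1.59 and 0.0485 TPM. Cd46, which in mice is known mainly from the testis, had 1.06, 0.266 and 0.145 TPM. Susd4, Cd55, Cd46 and Csmd1 did not pass, and Cd55b had no count. Reads could also have been split between Cd59a and Cd59b, and between Cr1l and Cr2, which are close relatives.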

How the data were processed

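All 3 libraries form 1 group. The authors deposited raw counts and FPKM per gene, per the file headers. HISAT2, StringTie, edgeR and GRCm39 appear in the submitters' processing notes, with no versions or roles. Each deposited FPKM equals the count over the library total and over a gene length, which varied by at most 0.0528% between libraries. The sources used here do not state the handling of strand or of reads that match several genes.

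FPKM was rescaled to TPM and analysed as log2(TPM + 1), where the pseudocount of 1 compresses low values. CPM was computed from the deposited counts. The 27265 genes with any count were tested with limma 3.58.1 in R 4.3.3, in intercept-only models with a mean-variance trend and Benjamini-Hochberg adjustment over all genes tested. Limma draws the variance of each gene toward that of other genes, so its p-values and SE do not rest on a gene's own spread alone. The first fit tested the mean against 1 TPM, one-sided. The other fits tested the difference between a C1q chain and each gene, two-sided. Where standard errors of chain and gene were combined, those of the first fit were used and the pairing within libraries was ignored. The fits were also run on simulated data with genes set well above or well below 1 TPM and each gene drawn independently. No gene was set at the threshold, so that run says little about the rate of false calls. It also says nothing about the spread of a chain shared by all genes of a fit. With 1 group, no count test between groups could be made. Scaling alternatives used edgeR 4.0.16 and DESeq2 1.42.0. Coding transcript lengths came from GENCODE M21, found for 16223 of the genes tested, and the others kept the deposited length.

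The members and lists were chosen with earlier results of these data known. Named were the 9 genes, the 4 highest of each role list, a set list of other complement genes, the 3 protein-coding genes nearest each chain in level and genes overlapping a member. Other pathway genes, Csf1r, Mrc1, Fcer1g, Lyz2 and single markers of other cells were named after their values were seen. A soluble regulator of that list is not reported here.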

Additional observations from a re-analysis of the deposited data

How the results depend on the processing

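No called difference between a C1q chain and another gene changed sign under the alternatives, but the order of close neighbours did: C1qc exceeded C1qa with coding transcript lengths (155 against 141 TPM) and in CPM (135 against 108.0), and C2 exceeded C3ar1 (16.5 against 7.92 TPM and 31.6 against 24.6 CPM). The number of the 9 genes called above 1 TPM was 6, and lay between 5 and 6 over 12 alternatives: the size factors of TMM and DESeq2, CPM without length, pseudocounts of 0.1 and 5, other filters, no limma trend, coding transcript lengths and leaving out each replicate. C3ar1 was the gene lost, without replicates 1 or 3 and without a filter. The number of other pathway genes lay between 9 (without replicate 2) and 15, beside 13. All 18 chain pairs kept their direction where they could be tested, and the called number lay between 15 and 18 over 13 alternatives. The lowest, 15, left C5ar1 out because it has no count in replicate 3, so only 15 pairs were tested. Among the 9 genes, called levels in TPM that moved by over 1.5 times were those of C1qb (344 in place of 563), C1qa (141 in place of 229) and C3ar1 (7.92 in place of 12.8) with coding transcript lengths, C1qa without replicate 3 (142.3) and C3ar1 without replicate 2 (7.23). Among the other pathway genes, coding transcript lengths moved Cd59b (29.8 in place of 7.42), Cr1l (21.9 in place of 7.74), C1qbp (145.5 in place of 74.5) and Clu (1967 in place of 1036), and leaving out replicate 1 moved Cfp (4.74 in place of 9.11). No paired analysis was possible because the labels give 1 group. C3, Cfb, C5ar1 and most lectin and terminal genes had few counts or none in at least 1 library. Some of their differences exceed counting error, such as that of C5ar1 with 101, 74 and 0 counts. The spread from amplifying RNA of a few cells was not measured, so these differences between libraries remain uncertain.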
